A study of Mus musculus with 77 samples.

Results

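The miR-15 and miR-16 seed family is a group of short regulatory RNAs that carry the same or nearly the same seed, the stretch near the 5′ end through which a miRNA pairs with its target mRNAs. It was followed here in the bed nucleus of stria terminalis (BNST), a small forebrain region of the extended amygdala, and in blood cells of mice exposed to chronic social defeat stress (CSDS). The members were chosen by name and comprised 7 mature miRNAs: miR-15a-5p, miR-15b-5p, miR-16-5p, miR-195a-5p, miR-322-5p, miR-497a-5p and miR-503-5p. Of these, 6 were among the 788 miRNA entries of the AGO2-bound BNST data (data set D), where miR-16-5p had 2 entries and miR-503-5p had none. All 7 were among the 299 miRNA entries of the blood data (data set G).

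All animals were male and 8 weeks old at dissection. Defeated mice had met an unfamiliar aggressor every day, and tissue was taken 6 to 8 days after the last CSDS session. By their social interaction with a new mouse they were divided into stress-susceptible and resilient mice, and mice at the behavioral extremes were sequenced, so the groups stand for those extremes and not for all defeated mice. Controls of the same strain lived beside an unfamiliar neighbor without physical contact. Data set D held 13 pools of C57BL/6Crl (B6) BNST, each made of tissue of 3 mice, from which RNA bound to Argonaute 2 (AGO2) had been immunoprecipitated: 5 control, 5 resilient and 3 susceptible pools, the last numbered 1, 2 and 4. AGO2-bound mRNA (data set E) came from 5, 5 and 4 pools of the same 3 groups. Data set G held whole blood of 25 single mice, with 5 each of B6 control, B6 resilient, B6 susceptible, DBA/2Crl (D2) control and D2 susceptible animals, and blood mRNA (data set F) came from the same 25 mice.

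miRNAs of this family are made from hairpins in pairs, guide AGO2 to complementary sites mostly in the 3′ untranslated region (3′ UTR) of mRNAs, and lower the stability or translation of those mRNAs. They are best known as brakes on the cell cycle, through cyclins, Cdk6, Chek1 and Wee1, and on survival through Bcl2. Loss of the miR-15a and miR-16 locus within Dleu2 is frequent in chronic lymphocytic leukemia, miR-322 and miR-503 are induced during muscle differentiation, and miR-16 has been studied as a repressor of the serotonin transporter Slc6a4.

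The 7 mature sequences are shown because the seed defines the family and because the closeness of some of them limits how reads can be assigned. Each is written 5′ to 3′ as in RefSeq (GRCm38.p6), with bases 2 to 8, the seed, in capitals.
mmu-miR-15a-5p: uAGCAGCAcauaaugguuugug
mmu-miR-15b-5p: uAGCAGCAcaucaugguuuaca
mmu-miR-16-5p: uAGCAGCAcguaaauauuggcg
mmu-miR-195a-5p: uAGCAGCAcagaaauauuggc
mmu-miR-322-5p: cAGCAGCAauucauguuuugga
mmu-miR-497a-5p: cAGCAGCAcacugugguuugua
mmu-miR-503-5p: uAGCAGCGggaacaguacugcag
The first 6 share the seed AGCAGCA, and miR-503-5p has AGCAGCG. Beyond the seed the closest pair was miR-16-5p and miR-195a-5p, which differ at 2 of 21 shared positions (G10A and U11G from miR-16-5p to miR-195a-5p, counted from the 5′ end). miR-15a-5p and miR-15b-5p differ at 4 of 22 positions (A12C, G20A, U21C and G22A from miR-15a-5p to miR-15b-5p), and miR-503-5p differs from each other member at 10 to 12. Mature lengths were 21 to 23 bases, so read counts of different members were compared without scaling for length.

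The hairpins lie in 4 clusters of GRCm38. Mir16-1 and Mir15a lie on the minus strand of chromosome 14, with mature miR-15a-5p at chr14:61632075-61632096 and mature miR-16-5p at chr14:61631936-61631957. Mir15a is in an intron of the long non-coding RNA gene Dleu2 (chr14:61602839-61682373) and Mir16-1 overlaps an exon of at least 1 of its transcripts. Mir15b and Mir16-2 are on the plus strand of chromosome 3 within an intron of Smc4, which encodes a condensin subunit (chr3:69004738-69034623), with miR-15b-5p at chr3:69009775-69009796 and the second copy of miR-16-5p at chr3:69009918-69009939. Mature miR-16-5p is the same from both loci, so its reads cannot be told apart by locus. miR-497a-5p (chr11:70234730-70234751) and miR-195a-5p (chr11:70235062-70235082) lie on the plus strand of chromosome 11, and miR-503-5p (chrX:53054027-53054049) and miR-322-5p (chrX:53054306-53054327) on the minus strand of the X chromosome, where the annotation used (GENCODE vM21) gave no host gene on the same strand for either pair.

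The deposited values were read counts relative to an effective library size, on the log2 scale of CPM. Because every value returned a whole read number, read totals could be recovered: 3173294 to 9404828 reads a library for AGO2 miRNA, 3701281 to 10659882 for AGO2 mRNA, 6916739 to 10113657 for blood miRNA and 9751603 to 15878495 for blood mRNA. miRNAs known from neurons and oligodendrocytes were present in the AGO2 data, with 19773 to 33450 CPM in sum for the neuronal ones, and none of either list was among the blood entries. Red cell miRNAs summed to 300.5 to 463.4 CPM in the AGO2 pools and 232510 to 494010 CPM in blood. miRNAs listed for lymphocytes summed to 1668 to 4985 CPM in the AGO2 pools (3 miRNAs) and 183.2 to 1461 CPM in blood (2 miRNAs). Endothelial and platelet miRNAs summed to 3643 to 6333 CPM (2 miRNAs) and 66.4 to 209.2 CPM (1 miRNA). Both sums were higher in the pools than in blood, although the libraries were prepared with different kits and scaled separately. In the pools these lists are therefore not read as a measure of blood cells. mRNA markers of B cells, T cells and neutrophils had no entry in the AGO2 mRNA data. For 2 D2 mice, the phenotype in the sample label and the one in the data column name differed: D2 control 2 has a column marked susceptible, and D2 susceptible 2 a column marked control. Groups follow the labels throughout, and each comparison that uses D2 mice is given also with groups as in the column names and without these 2 mice.

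In the BNST, miR-15a-5p and miR-497a-5p were the most abundant AGO2-bound members, while in blood it was miR-15b-5p and miR-15a-5p. Over the 13 BNST pools the mean level was 8.72 ± 0.151 log2 CPM for miR-15a-5p (SD, n = 13), 8.13 ± 0.354 for miR-497a-5p, 6.85 ± 0.294 for miR-195a-5p, 6.35 ± 0.178 for miR-322-5p and 4.27 ± 0.324 for miR-15b-5p. This order held in every one of the 13 pools for each pair of neighbors. The 2 miR-16-5p entries were lowest, at 2.31 ± 0.812 and 1.87 ± 1.54 log2 CPM, and their order held in 10 of 13 pools, so they did not differ beyond their spread. The family made up 0.0943% ± 0.00958 of all AGO2-bound miRNA reads (SD, n = 13), from 0.0770% to 0.120%. Of the family's reads in the BNST, 45.2% were miR-15a-5p, 30.4% miR-497a-5p, 12.4% miR-195a-5p, 8.78% miR-322-5p and 2.11% miR-15b-5p.

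In blood the family was more prominent, with 4.05% ± 0.425 of all miRNA reads (SD, n = 25), from 3.53% to 4.98%, and miR-15b-5p alone gave 80.6% of the family's reads. Among the 299 blood miRNAs, miR-15b-5p ranked 9th, miR-15a-5p 17th and miR-16-5p 33rd by mean level, against places 352, 152 and 482 and 511 of 788 in the AGO2 data. In the 15 B6 mice the order was miR-15b-5p (15.01 ± 0.211 log2 CPM), miR-15a-5p (12.87 ± 0.211), miR-16-5p (9.40 ± 0.339), miR-195a-5p (8.00 ± 0.174), miR-503-5p (6.52 ± 0.386), miR-497a-5p (6.27 ± 0.2) and miR-322-5p (6.15 ± 0.291). The last 3 did not separate: miR-503-5p was above miR-497a-5p in 11 of 15 mice, and miR-497a-5p above miR-322-5p in 8 of 15. In the 10 D2 mice the lower end of the order was another one, with miR-503-5p (7.61 ± 0.402) and miR-322-5p (6.83 ± 0.307) above miR-195a-5p (5.07 ± 0.584) and miR-497a-5p (2.91 ± 0.459) in all 10.

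**Figure D1:**
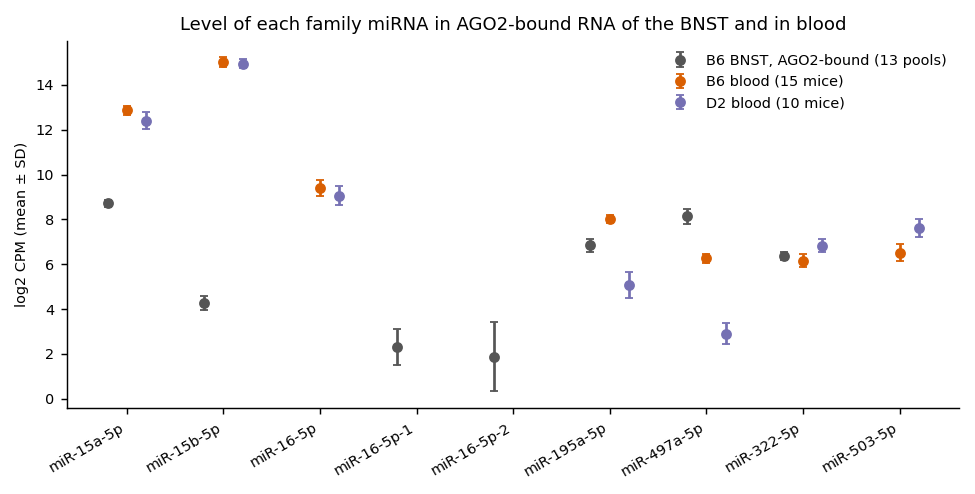
Mean ± SD of log2 CPM of each family member in 13 B6 BNST pools (AGO2-bound) and in blood of 15 B6 and 10 D2 mice. miR-15b-5p was the highest member in blood and among the lowest in the BNST, and miR-195a-5p and miR-497a-5p were lower in D2 than in B6 blood.

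Ratios of members to one another were not the same in the BNST and in blood. miR-497a-5p exceeded its cluster partner miR-195a-5p in all 13 BNST pools, with a mean log2 ratio of 1.28 ± 0.418, and lay below it in all 25 blood samples, at −1.73 ± 0.133 in B6 and −2.16 ± 0.495 in D2 mice. miR-15a-5p exceeded miR-15b-5p, which is encoded on another chromosome, in the BNST by 4.45 ± 0.303 on the log2 scale. In blood miR-15a-5p was below miR-15b-5p by 2.14 in B6 and 2.54 in D2 means. miR-503-5p was above its cluster partner miR-322-5p in 14 of 15 B6 and 10 of 10 D2 blood samples, by 0.37 and 0.77 on average. Their ratio in the BNST is not known, as miR-503-5p had no entry there. BNST and blood libraries were prepared with different small RNA kits and were normalized separately, so these values are set side by side only, and the part of the kits and of AGO2 selection in the differences was not tested. In such bulk samples, a lower number of cells of a type and a lower amount of RNA per cell cannot be told apart.

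The first comparison asked how the AGO2-bound members differed between defeated and control B6 mice in the BNST. miR-15b-5p, one of the least abundant members there, was the single member called in either defeated group, and both comparisons share the 5 control pools. A member was called at a nominal P below 0.05 and a fold change of at least 1.2 in either direction, the rule stated for the study. By that rule 9.52% of 788 miRNAs were called for resilient versus control pools, 4.7% for susceptible versus control and 3.93% for susceptible versus resilient, against 1, 1 and 0 of the 7 family entries.

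miR-15b-5p was at 4.03, 3.90, 4.14, 4.05 and 3.74 log2 CPM in the 5 control pools, at 4.61, 4.38, 4.43, 4.47 and 4.35 in the 5 resilient pools, and at 4.08, 4.42 and 4.95 in the 3 susceptible pools. All resilient pools lay above all control pools, and susceptible pool 1 lay within the control range. These levels rest on 44 to 73 reads in control, 76 to 213 in resilient and 82 to 198 in susceptible pools. The log2 difference was 0.47 (SE 0.203, P = 0.0312, Padj = 0.325 by limma) in resilient and 0.51 (SE 0.234, P = 0.0426, Padj = 0.884) in susceptible pools, and the two-sided exact permutation tests gave P = 0.00794, the smallest that 5 against 5 pools allow, and P = 0.0714. Neither passed the Benjamini-Hochberg adjustment. The call in resilient pools was lost without control pool 2 (0.45) or 5 (0.41) or without resilient pool 1 (0.43) or 4 (0.47). The call in susceptible pools was lost without control pool 2 or 5 or susceptible pool 2 (0.54), and without susceptible pool 4 the difference was 0.28. It was also lost with only the compared groups in the fit (0.51), with sample weights (0.38) and when pool numbers entered as a replicate block (0.48).

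miR-15a-5p, the most abundant member in the BNST, was at 8.57, 8.53, 8.70, 8.80 and 8.62 log2 CPM in control pools, at 8.77, 8.95, 8.87, 8.78 and 8.97 in resilient pools and at 8.67, 8.49 and 8.71 in susceptible pools. All 5 resilient pools were above all 3 susceptible ones, while control pool 4 reached into the resilient range. The difference was 0.22 (SE 0.0935, P = 0.028 by limma, exact permutation P = 0.0238) for resilient versus control and −0.24 (SE 0.108, P = 0.0384, Padj = 0.983) for susceptible versus resilient, both below the fold limit and so not called. The exact permutation P of the second difference was 0.0357, the smallest that 3 against 5 pools can give. Without resilient pool 1 or susceptible pool 4 the susceptible versus resilient difference passed the fold limit (−0.27 and −0.29).

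For the remaining members no AGO2 difference was called. miR-497a-5p had a mean of 8.31 ± 0.211 log2 CPM in control, 8.00 ± 0.405 in resilient and 8.05 ± 0.448 in susceptible pools (SD, n = 5, 5 and 3). In 4 of 5 resilient pools it was between 7.71 and 7.89, below all controls, and resilient pool 2 was the highest of all at 8.72. The log2 difference was −0.31 (P = 0.111 by limma, exact permutation P = 0.175) with all pools, and without resilient pool 2 it was −0.49 and was called, as it was with sample weights (−0.40). Its cluster partner miR-195a-5p was at 6.77 ± 0.2, 7.01 ± 0.393 and 6.73 ± 0.172. Resilient pool 3, at 6.38, was the lowest of all pools for miR-195a-5p, and without it the difference of resilient from control pools was 0.40 and was called, in place of 0.24 (exact permutation P = 0.246), and that of susceptible from resilient pools was −0.43 and was called. miR-322-5p was at 6.34 ± 0.164, 6.42 ± 0.179 and 6.27 ± 0.219, with an exact permutation P of 0.468 for resilient and 0.571 for susceptible pools against controls and of 0.286 between the defeated groups.

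**Figure D2:**
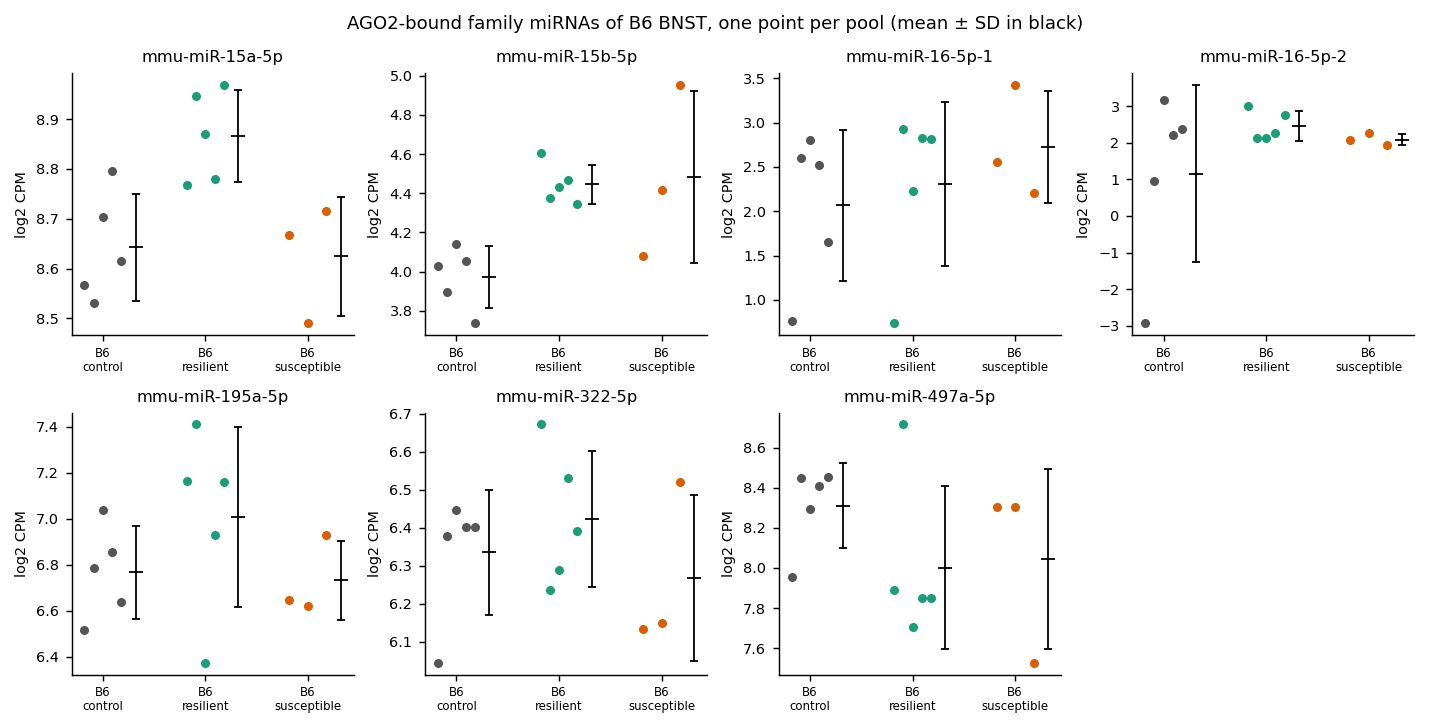
log2 CPM of the 7 family entries in each AGO2 library of B6 BNST (5 control, 5 resilient, 3 susceptible pools), with mean ± SD. The resilient pools of miR-15b-5p (4.35 to 4.61) lie above all control pools (3.74 to 4.14), and miR-497a-5p has 1 resilient pool at 8.72 above the rest of its group.

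The 2 entries of miR-16-5p were not copies of each other: they differed in the mean by 0.44 with an SD of 1.37 on the log2 scale. Of the 15 miRNAs with 2 entries in that data set, none had identical values in both. The first entry ranged from 0.73 to 3.42 and the second from −2.94 to 3.15 log2 CPM over the 13 pools. In control pool 1 the second entry had 0 of 3980834 reads, which allows up to 0.754 CPM (3 counts, counting error only). How reads that match both loci were shared between the entries is not given in the sources used here, so the differences of this member in the BNST (0.24 and 1.30 in resilient, 0.66 and 0.93 in susceptible pools, none called) are uncertain. The values of the second entry rest on control pool 1, without which they were 0.28 and −0.09. With 1 pool left out the resilient value ran from 0.28 to 1.80, and it was called without control pool 3 (1.80).

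Other arms of the hairpins were also bound to AGO2. miR-195a-3p was at 5.49 and miR-322-3p at 5.16 log2 CPM on average, below the 5p arms by 1.36 and 1.2, while miR-15b-3p and miR-15a-3p were below theirs by 3.78 and 9.12. The 3p arm of miR-503, a member whose 5p arm had no entry, was at 0.30 log2 CPM, with 0 to 18 reads a pool. Of the other miRNAs of the X-linked cluster, miR-351-5p was at 7.24 ± 0.237 log2 CPM in the pools. None of the other arms or of these cluster miRNAs was called in any comparison of pools.

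Some markers of blood cells, vessels and neurons also differed between the groups of pools, in both directions. In the resilient versus control comparison 2 of 5 red cell miRNAs and 2 of 2 endothelial and platelet miRNAs were higher, with red cell miRNAs at 300.5 to 356.7 CPM in sum in control and 324.6 to 463.4 CPM in resilient pools. In AGO2-bound mRNA, 2 of 5 red cell mRNAs were lower, with summed levels of 13.9 to 18.2 CPM in control and 9.0 to 20.1 CPM in resilient pools. None of the 3 miRNAs listed for lymphocytes was called, at 3629 to 4985 CPM in sum in control and 2499 to 4480 CPM in resilient pools. As given above, neither that list nor the endothelial and platelet list is read as a measure of blood cells in the BNST. In susceptible versus control pools 1 of 5 red cell miRNAs and 1 of 2 platelet mRNAs were higher. In susceptible versus resilient pools 1 of 2 endothelial and platelet miRNAs was lower. Of 4 neuronal miRNA entries 1 was lower in resilient versus control pools (median −0.52). In susceptible versus resilient pools 2 of the 4 were higher (median 0.37), and in susceptible versus control pools none was called. Of 4 neuronal mRNAs 2 were lower in susceptible versus control pools. miR-15b-5p, miR-15a-5p and miR-16-5p are themselves abundant in blood. The part of blood cells and of other cell types in the miR-15b-5p and miR-15a-5p values was not tested.

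The second comparison asked whether blood levels of the family differed between defeated and control mice of each strain. In B6 mice the X-linked pair miR-503-5p and miR-322-5p was higher in susceptible mice, and no member was called in resilient mice. By the same rule 4.35% of 299 blood miRNAs were called for B6 resilient versus control, 4.01% for B6 susceptible versus control and 3.01% for B6 susceptible versus resilient, against 0, 2 and 0 of 7 members. The comparisons with 0 calls had no member at an unadjusted P below 0.05 by limma either.

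miR-503-5p was at 5.97, 6.04, 6.39, 6.49 and 6.00 log2 CPM in B6 controls, at 6.68, 6.03, 6.64, 6.38 and 7.13 in resilient mice and at 6.95, 6.75, 6.93, 6.96 and 6.53 in susceptible mice. Every susceptible mouse was above every control, and resilient mice spread over both ranges. The rise in susceptible mice was 0.64 on the log2 scale (FC = 1.56, SE 0.205, P = 0.00433, Padj = 0.65 by limma), the smallest nominal P of all 299 miRNAs in that comparison, with an exact permutation P of 0.00794. It remained called under all alternatives tried, with differences from 0.51 to 0.72. Within mice whose names begin with EC3 it was 0.84 (2 against 2 mice) and within EC4 0.51 (3 against 3). In resilient mice the difference was 0.39 (SE 0.205, P = 0.0667 by limma, exact permutation P = 0.103) and was called without control 4 (0.47) or resilient 2 (0.53), and susceptible and resilient mice differed by 0.25 (exact permutation P = 0.262), so the data do not show that the groups of defeated mice differ.

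miR-322-5p, from the same cluster, was at 5.79, 6.03, 5.86, 6.10 and 5.77 log2 CPM in B6 controls, at 6.27, 6.08, 6.28, 5.96 and 6.65 in resilient mice and at 6.79, 6.29, 6.24, 6.27 and 5.96 in susceptible mice. Of the defeated mice, 2 resilient and 1 susceptible lay within the control range, and each group had 1 mouse at 6.65 or above. It was higher by 0.40 in susceptible mice (FC = 1.32, SE 0.180, P = 0.0349, Padj = 0.98 by limma, exact permutation P = 0.0238). In resilient mice the difference of 0.34 was not called (P = 0.0697 by limma), although the exact permutation P was 0.0397, and was called with only the compared groups or without resilient 4 (0.41). The call in susceptible mice was lost without control 1, 3 or 5 or susceptible 1 (0.28) and with voom weights. Within the EC3 and EC4 mice the susceptible versus control difference was 0.63 and 0.25.

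Other miRNAs of the X-linked cluster were much less abundant in blood. miR-351-5p was 0.94 higher in B6 susceptible mice (SE 0.375, P = 0.0188 by limma, exact permutation P = 0.0476) and was called, though not with voom weights, without control 5 or without susceptible 1 (0.80). miR-542-5p differed by 0.60 and was not called (P = 0.0503 by limma, exact permutation P = 0.0476).

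The other members showed no called difference in B6 blood, but 3 of them had one under some alternatives. miR-497a-5p was at 6.44 ± 0.166 log2 CPM in control, 6.20 ± 0.176 in resilient and 6.17 ± 0.154 in susceptible mice (SD, n = 5 each), a difference of −0.28 in susceptible mice (P = 0.13 by limma, exact permutation P = 0.0397), which was called with only the compared groups. miR-195a-5p was at 8.12 ± 0.0937, 7.99 ± 0.211 and 7.90 ± 0.156. miR-16-5p differed by 0.37 in susceptible mice (exact permutation P = 0.0635) and by 0.30 in resilient mice (P = 0.222), and the first of these was called with only the compared groups, with sample weights (0.42) and without control 5 (0.49). miR-15a-5p had group means of 12.86, 12.88 and 12.86. miR-15b-5p, the member called in the BNST, had group means of 15.14, 14.89 and 15.01 in blood, with differences of −0.25 (exact permutation P = 0.143) in resilient and −0.13 in susceptible mice. The former was called without control 5 (−0.34) or resilient 4 (−0.30).

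Markers that moved in the same B6 comparison were platelet mRNAs, of which 3 of 4 were higher in susceptible mice (median 0.89), with summed levels of 1281 to 4860 CPM in controls and 3196 to 8811 CPM in susceptible mice, and the 1 myeloid miRNA with an entry, miR-223, which was 0.49 higher. None of 8 red cell mRNAs or 4 red cell miRNAs was called. Their part in the miR-503-5p and miR-322-5p values was not tested.

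**Figure D3:**
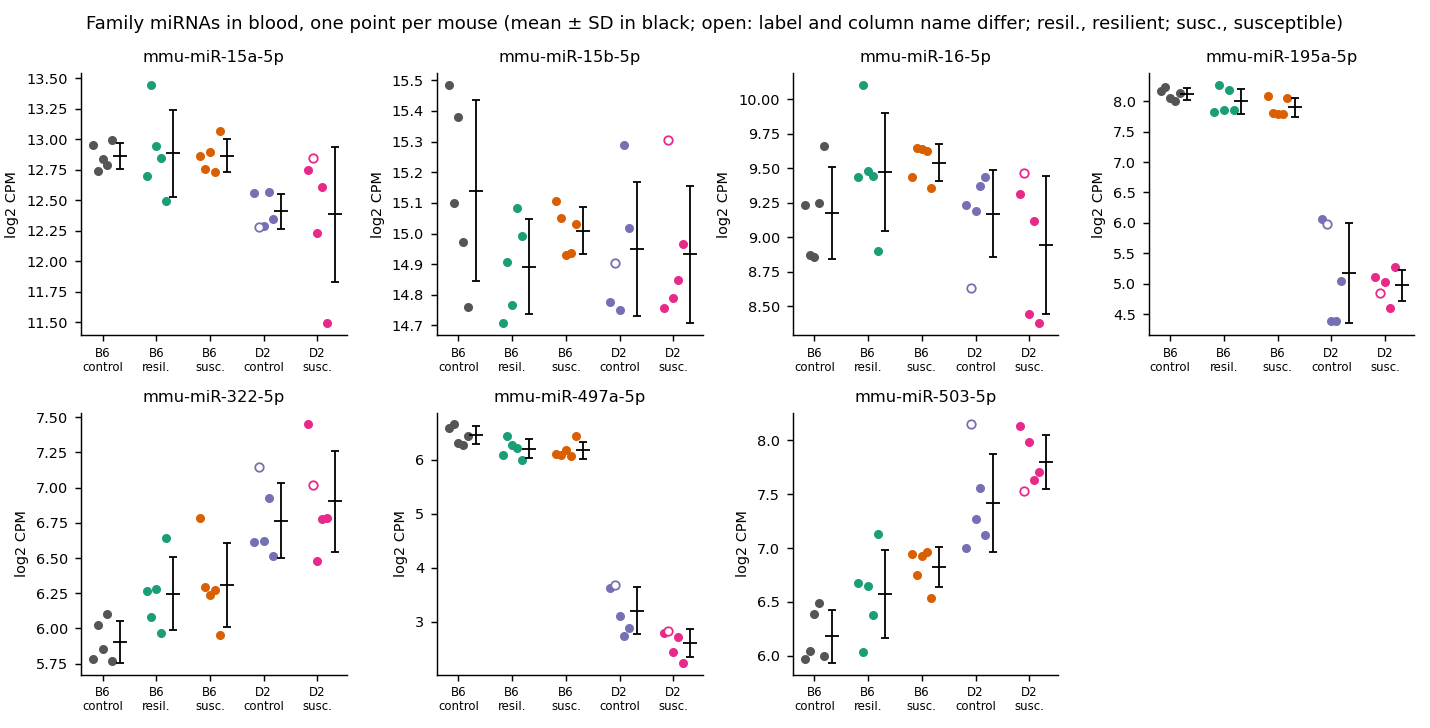
log2 CPM of the 7 members in blood of each mouse in 5 groups of 5, with mean ± SD. Open points are the D2 mice whose label and column name differ. miR-503-5p separates B6 controls (5.97 to 6.49) from B6 susceptible mice (6.53 to 6.96), and miR-195a-5p and miR-497a-5p separate the strains.

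In D2 mice the result depended on the 2 mice whose labels and column names differ. With groups from the labels, 8.7% of the 299 miRNAs and 1 of 7 members were called for D2 susceptible versus control. miR-497a-5p was at 3.63, 3.68, 3.11, 2.74 and 2.89 log2 CPM in D2 controls and at 2.80, 2.84, 2.44, 2.72 and 2.25 in D2 susceptible mice. These levels rest on 50 to 109 reads in controls and 50 to 57 in susceptible mice. The ranges overlap between 2.74 and 2.84. In susceptible mice it fell by 0.60 (1.52-fold lower, SE 0.176, P = 0.00218, Padj = 0.315 by limma, exact permutation P = 0.0317). With groups as in the column names the difference was −0.27 (P = 0.207 by limma, exact permutation P = 0.373) and the call was lost. Without both mice it was −0.54 and was called, and with quantile normalization it was −0.39 and was not.

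miR-503-5p was at 7.00, 8.15, 7.26, 7.56 and 7.12 log2 CPM in mice labelled D2 control and at 8.13, 7.53, 7.99, 7.63 and 7.71 in mice labelled D2 susceptible. The second mouse of each group is the one in doubt, and among controls it was the highest. By the labels the difference was 0.38 and was not called (P = 0.0769 by limma, exact permutation P = 0.159), while with quantile normalization it was 0.48 and was called. By the column names it was 0.63 (P = 0.0017 by limma, exact permutation P = 0.00794, groups 7.29 ± 0.247 and 7.92 ± 0.239 without overlap), and without both mice it was 0.63 and was called. The direction was the same as in B6 susceptible mice under all 3 groupings of the D2 mice, but not within every name series. By the labels the difference was 1.13 within ED3 (1 against 1 mouse), −0.43 within ED4 (3 against 1) and 0.39 within ED6 (1 against 3). By the column names the ED4 value was 0.39. The D2 groups were thus unevenly spread over the name series.

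miR-16-5p differed by −0.23 in D2 susceptible mice by the labels, by −0.56 (P = 0.00832 by limma, exact permutation P = 0.0317) by the column names and by −0.49 without both mice, where it was called. Within ED3, ED4 and ED6 its difference was 0.08, 0.38 and −0.95 by the labels. By the column names it was 0.08, −0.73 and −0.95. miR-195a-5p changed sign between groupings, from −0.20 by the labels to 0.25 by the column names and 0.03 without both mice, and was not called in any of them. miR-322-5p differed by 0.14 (exact permutation P = 0.492), miR-15a-5p by −0.03 (exact permutation P = 0.921) and miR-15b-5p by −0.02 (exact permutation P = 0.897), and none of these was called under any grouping. Thus 1, 2 and 3 members were called under the 3 groupings, and they were not the same ones. The share of all miRNAs called was computed for the label grouping only, so the counts under the other groupings have no background beside them. In the same comparison by the labels 2 of 4 red cell miRNAs were higher, and their part in the members' values was not tested.

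The difference between the strains in the response to CSDS, tested as an interaction, was called for 4.35% of miRNAs and for 0 of 7 members by the labels, none of which had an unadjusted P below 0.05. It was nearest to a call for miR-16-5p (−0.59, SE 0.312, Padj = 0.918 by limma), whose value was −0.92 by the column names and −0.86 without both mice, and was called in both. By the labels it was also called with sample weights (−0.60), with voom weights (−0.57) and without any 1 of B6 control 5, D2 control 2 and D2 susceptible 1 and 2 (−0.73 to −0.69). For miR-497a-5p the difference was −0.33 and was called with the first part of the mouse name as covariate (−0.56). It was −0.27 for miR-503-5p, −0.26 for miR-322-5p, 0.11 for miR-15b-5p, −0.03 for miR-15a-5p and 0.01 for miR-195a-5p, and none of the alternatives gave a call for these 5.

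The third comparison was between the strains. D2 control blood held far less miR-497a-5p and miR-195a-5p and more miR-503-5p and miR-322-5p than B6 control blood. Between control mice 25.4% of the 299 miRNAs were called and 5 of 7 members, and 4 of the 5 passed Padj below 0.05. Between susceptible mice of the strains, a comparison added after the data had been seen, 34.4% of miRNAs and 6 of 7 members were called, with 6 also under both other groupings of the D2 mice and 4 without D2 susceptible 5. The B6 and D2 groups of each are those used above, so these comparisons are not independent of the ones within strains.

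miR-497a-5p was at 6.58, 6.65, 6.31, 6.26 and 6.43 log2 CPM in B6 controls and at 3.63, 3.68, 3.11, 2.74 and 2.89 in D2 controls. It was 9.41-fold lower in D2 mice (log2 difference −3.23, SE 0.176, Padj = 1.01e-13 by limma), the second smallest P among all miRNAs. In susceptible mice, at 6.09, 6.08, 6.18, 6.06 and 6.43 in B6 against the D2 values given above, it was 11.8-fold lower (−3.56, Padj = 1.1e-14). Its D2 levels rest on 50 to 109 reads and its B6 levels on 430 to 793.

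miR-195a-5p was at 8.16, 8.24, 8.04, 8.00 and 8.13 log2 CPM in B6 controls and at 6.07, 5.97, 4.38, 4.39 and 5.04 in D2 controls, 7.69-fold lower (−2.94, SE 0.246, Padj = 4.85e-10 by limma). In susceptible mice it was at 8.09, 7.80, 7.78, 7.79 and 8.06 in B6 and at 5.12, 4.84, 5.02, 4.61 and 5.28 in D2, 7.62-fold lower (−2.93, Padj = 6.3e-10). Over all 15 B6 and 10 D2 mice, miR-195a-5p ran from 7.78 to 8.26 in B6 and from 4.38 to 6.07 in D2, and miR-497a-5p from 5.98 to 6.65 and from 2.25 to 3.68. Such a separation was seen for 23 of 299 miRNAs (7.69%), among which miR-497a-5p had the fifth and miR-195a-5p the seventh widest gap. Together the pair gave 0.802% ± 0.0935 of the family's reads in B6 and 0.119% ± 0.0554 in D2 blood (SD, n = 15 and 10).

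The X-linked pair went the other way. miR-503-5p was higher in D2 than in B6 controls by 1.24 (FC = 2.36, Padj = 4.79e-05 by limma) and miR-322-5p by 0.86 (FC = 1.81, Padj = 0.00103), without overlap between control groups for either. In susceptible mice the differences were 0.97 (Padj = 0.000879) and 0.59 (Padj = 0.02). The cluster neighbors miR-351-5p (0.99, Padj = 0.0722) and miR-542-5p (0.97, Padj = 0.0181) were also called between controls, and between susceptible mice their values were 0.00 and 0.25. miR-322-5p and miR-503-5p together were 0.406% ± 0.115 of the family's reads in B6 and 0.847% ± 0.238 in D2 blood.

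The chromosome 14 and 3 members differed less. miR-15a-5p was lower by 0.45 in D2 controls (Padj = 0.111) and by 0.48 in D2 susceptible mice, and the former call was lost with quantile normalization (−0.14), voom weights (−0.29), groups as in the column names (−0.34) and without B6 control 5 or D2 control 2. The latter was lost with voom weights (−0.29) and without D2 susceptible 5 (−0.26). miR-16-5p had a difference of −0.00 between controls and was lower by 0.60 (Padj = 0.0555) in D2 susceptible mice, a call lost without D2 susceptible 5 (−0.45). miR-15b-5p, with −0.19 between controls and −0.08 between susceptible mice, was not called in either comparison, but between controls it was without B6 control 5 (−0.29). Over all alternatives the differences between controls stayed between −3.40 and −3.07 for miR-497a-5p, −3.17 and −2.75 for miR-195a-5p, 0.76 and 1.02 for miR-322-5p and 1.06 and 1.40 for miR-503-5p, groupings of the 2 unclear mice included. With voom weights on read totals, which change the weighting and the library size together, the median of all miRNAs between controls moved from −0.05 to 0.11.

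Strain cannot be told apart from the mouse series in the names (EC for B6, ED for D2), and D2 reads were counted on the B6 reference genome, whose effect on these members was not tested. Blood cell markers also differed between control mice of the strains. In D2 mice 4 of 4 B cell mRNAs were lower (median −0.57). Higher were 2 of 4 platelet mRNAs, 1 of 4 T cell mRNAs and the 1 myeloid miRNA. Of 8 red cell mRNAs 4 were lower, with values over the list from −10.39 to 0.35 on the log2 scale. Of 4 red cell miRNAs 1 was higher and 1 lower (−0.67 to 0.42). The effect of counting on the B6 reference was not tested for these markers either. Their part in the differences of the members was not tested.

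**Figure D4:**
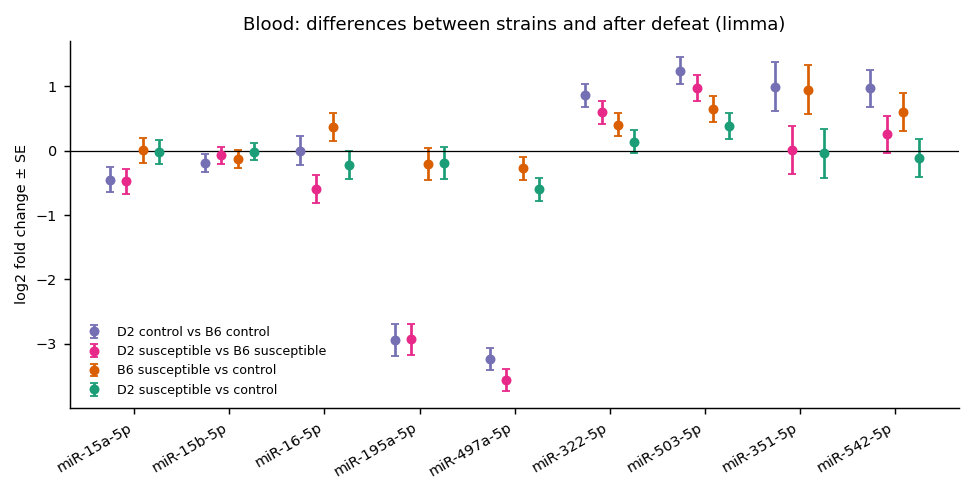
log2 fold change ± SE (limma) of the 7 members, miR-351-5p and miR-542-5p in blood for 4 comparisons. The strain differences of miR-497a-5p (−3.23) and miR-195a-5p (−2.94) are far larger than any difference between defeated and control mice, and miR-503-5p is above 0 in all 4.

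Some members of a cluster varied together from mouse to mouse. After group means were removed, Pearson r across the 25 blood libraries was 0.76 for miR-15a-5p and miR-16-5p, 0.65 for miR-322-5p and miR-503-5p and 0.62 for miR-195a-5p and miR-497a-5p, while the median over the 21 member pairs was −0.01 and the lowest, miR-16-5p with miR-503-5p, was −0.53. For the remaining cluster pair, miR-15b-5p and miR-16-5p, r in blood was −0.03. Across the 13 AGO2 libraries the pairs ranged from −0.59 to 0.60 with a median of 0.29. Of the cluster pairs there, miR-195a-5p and miR-497a-5p had an r of 0.36. With the first and second miR-16-5p entry, r was 0.26 and 0.32 for miR-15a-5p and −0.22 and −0.03 for miR-15b-5p. Libraries of a pair share depth and scaling, so these are descriptions. Outside the family, the blood miRNAs most like miR-503-5p were miR-700-5p (0.72), miR-378c (0.71) and miR-28a-5p (0.67), those most like miR-195a-5p were miR-337-5p (0.65), miR-299a-3p (0.65) and miR-379-5p (0.60), and those most like miR-15b-5p were miR-3058-5p (0.87), the red cell miRNA miR-451a (0.76) and miR-17-5p (0.73). In the BNST, miR-195a-5p was most like miR-192-5p (0.95), the oligodendrocyte miRNA miR-338-3p (0.95) and miR-30e-5p (0.92), and miR-15b-5p most like miR-669l-5p (0.80), miR-99b-5p (0.79) and miR-592-5p (0.78).

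The last readout was the mRNA side: genes that host the hairpins and 34 genes known as targets of the family, listed from general knowledge with earlier results of these data known. Of the hosts, Smc4 and Dleu2 had entries in both mRNA data sets and neither was called in any comparison. Of the targets, 32 were measured in AGO2-bound mRNA and 29 in blood mRNA. In AGO2-bound mRNA, 17.7% of 16587 genes were called for resilient versus control pools, 18.9% for susceptible versus control and 2.14% for susceptible versus resilient, and 5, 7 and 0 of the 32 targets, with none of them at an unadjusted P below 0.05 in the last comparison. A share of 4.39% of 21173 genes with an annotated 3′ UTR holds the 8-base site TGCTGCTA, which pairs with bases 2 to 8 of the 6 members with the common seed and ends in A. It was searched on the transcribed strand of the 3′ UTR, and a match is a description, not a tested site. Total mRNA of the same pools was not used here. In the AGO2 data the amount of a transcript and its binding to AGO2 therefore cannot be told apart.

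Among survival and growth signalling targets, Ikbkb, a kinase that activates NF-κB, was higher in both defeated groups. It was at 6.71 ± 0.1 log2 CPM in control, 7.32 ± 0.144 in resilient and 7.25 ± 0.0782 in susceptible pools (SD, n = 5, 5 and 4), with no overlap of either defeated group with the controls. The differences were 0.61 (SE 0.0853, Padj = 0.00511 by limma) and 0.54 (SE 0.0905, Padj = 0.00911), and Ikbkb was the single target past the adjustment and was called under all alternatives. Its 3′ UTR holds no TGCTGCTA. Map2k1, a kinase of the MAP kinase pathway with 1 site, was lower by 0.49 in resilient (Padj = 0.0966 by limma) and by 0.45 in susceptible pools (Padj = 0.124), and Jun, a transcription factor, by 0.44 (Padj = 0.145) and 0.45 (Padj = 0.143). Both lost the call in susceptible pools without susceptible pool 4 (−0.31 and −0.34), and Jun that in resilient pools without resilient pool 2 (−0.34). Pappa, a protease of the insulin-like growth factor system with 1 site, was higher by 0.52 in susceptible pools (Padj = 0.19 by limma), a call lost without control 4 (0.40) or susceptible 3 (0.36).

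Among cell cycle targets 2 of 11 were called in each defeated group, both higher. Chek1, a checkpoint kinase with 1 site, was higher by 0.46 (Padj = 0.218 by limma) in resilient and 0.49 (Padj = 0.211) in susceptible pools, and Dmtf1, a transcription factor of the Arf pathway, by 0.32 and 0.29. The Chek1 call was lost without control 2 or 3 or resilient 2 or 4 in resilient pools, and without control 3 or any of susceptible 2, 3 and 4 in susceptible pools, with differences of 0.31 to 0.49. It was also lost with only the compared groups (0.46) and with voom weights (0.45) in resilient pools, and under the replicate block (0.48) in susceptible pools. The Dmtf1 call in susceptible pools was lost without control 3 or 4 or susceptible 4 (0.26 in each). The cyclins, Cdk6, Wee1, E2f3, Bmi1 and Cdc25a were not called. Among neuronal targets App, the amyloid precursor, was lower by 0.33 in susceptible pools (Padj = 0.124 by limma) and lost the call without susceptible pool 4 (−0.24) and with voom weights (−0.25). In the same comparison 2 of 4 neuronal marker mRNAs were lower, and their part in the App value was not tested. The direction of called targets was thus mixed, with 3 higher and 2 lower in resilient and 4 higher and 3 lower in susceptible pools, and a median of 0.0025 and −0.015 over the 32 targets against −0.02 and −0.01 over all genes.

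**Figure D5:**
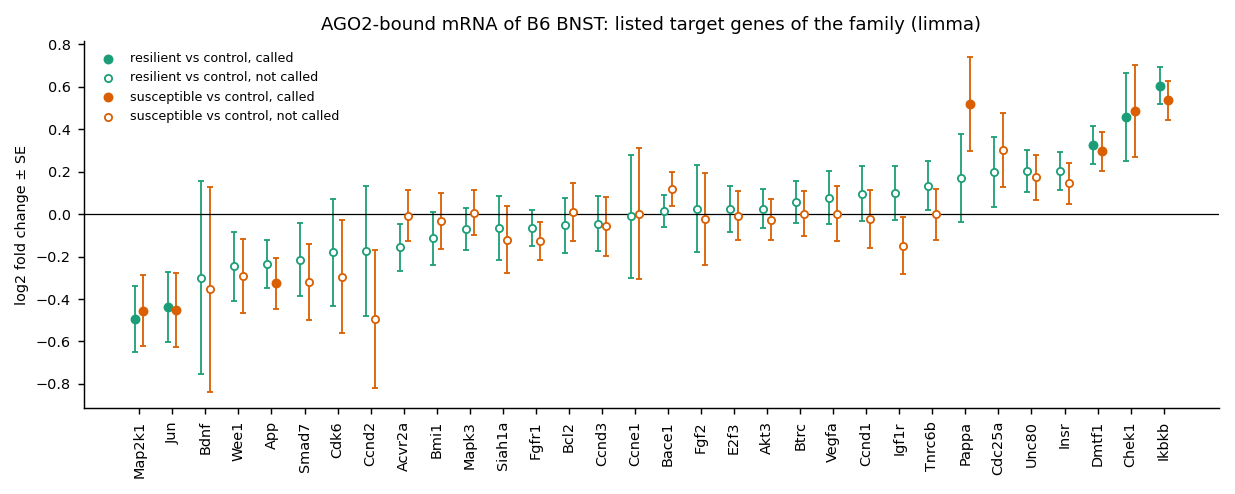
log2 fold change ± SE (limma) of 32 target genes in AGO2-bound mRNA, resilient versus control and susceptible versus control, filled where called. Ikbkb (0.61 and 0.54) is the single target past the adjusted threshold, and called targets lie on both sides of 0.

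Genes with the site were called about as often as all genes. Of 740 with a TGCTGCTA in AGO2-bound mRNA, 7.70% were higher and 9.32% lower in resilient pools, against 8.65% and 9.04% of all genes, and 8.65% were higher and 10.8% lower in susceptible pools, against 9.65% and 9.28%. Their median log2 difference was −0.03 and −0.02, against −0.02 and −0.01 over all genes. With voom weights on read totals the split of all called genes in susceptible pools moved from 1600 higher and 1540 lower to 2445 and 981, and with quantile normalization to 1789 and 1412.

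In blood mRNA 2.11% of 13084 genes were called for B6 resilient versus control, 4.5% for B6 susceptible versus control and 1.57% for D2 susceptible versus control, and 0, 1 and 0 of the 29 targets, those numbers being the same at an unadjusted P below 0.05 by limma without a fold limit. The 1 was Slc6a4, which rose from 5.53 ± 0.671 to 6.47 ± 0.813 log2 CPM in B6 susceptible mice (0.95, SE 0.408, Padj = 0.968 by limma). Platelets carry this transporter, and 3 of 4 platelet mRNAs were higher in the same mice, as given above. Their part in the Slc6a4 value was not tested. The call was lost with sample weights and without control 2 (0.68) or 5 (0.89) or susceptible 1 (0.73) or 3 (0.76). None of the 11 cell cycle targets was called in either strain after CSDS. With D2 groups as in the column names, and likewise without the 2 unclear mice, 2 host or target genes were called in D2 susceptible mice. The share of all genes called was not computed for these groupings.

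For D2 versus B6 controls, a blood mRNA comparison added after the data had been seen, 26.4% of genes and 9 of 29 targets were called. With D2 groups as in the column names, and likewise without the 2 unclear mice, 12 host or target genes were called. The share of all genes called was not computed for those groupings. Of the cell cycle targets 5 of 11 were higher in D2 mice and 1 was lower, with a median of 0.38 against 0.01 over all genes. Cdk6 was higher by 1.11 (Padj = 0.000224 by limma), the transcription factor E2f3 by 1.08 (Padj = 0.00337), Ccne1, which encodes cyclin E1, by 0.83 (Padj = 0.014), Ccnd3 by 0.56 (Padj = 0.0248) and the phosphatase Cdc25a by 0.38 (Padj = 0.137), while Ccnd1 was lower by 1.04 (Padj = 0.0528), a call lost with voom weights (−0.84). All of these but Ccnd3 and Ccnd1 hold 1 site. Slc6a4 was 5.33-fold higher (2.41, Padj = 0.000117). In the same comparison 2 of 4 platelet mRNAs were higher, and their part in the Slc6a4 value was not tested. Siah1a, a ubiquitin ligase with a near-identical copy, was lower by 1.44 (Padj = 0.000124), which the sharing of reads with that copy makes uncertain. Of the 594 genes with the site, 14.5% were higher and 8.42% lower, against 14.98% and 11.4% of all genes. With voom weights on read totals the median of all genes moved from 0.01 to 0.18, and the split of called genes from 1960 higher and 1494 lower to 2525 and 821, against 1807 and 1814 with quantile normalization.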

How the data were processed

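Small RNA libraries of AGO2-bound BNST RNA and of blood, and mRNA libraries of the same materials, were analysed from the log2 CPM values deposited by the authors. Per the study's methods, the authors trimmed reads, counted mature miRNAs with the miRDeep2 quantifier on miRBase, with Bowtie 1.1.1 alignment to GRCm38 (build and version also in the submitters' processing notes), counted mRNA reads with STAR and HTSeq, removed features of low abundance and computed voom log2 CPM with an offset of 0.5 reads. They had left out 1 AGO2 miRNA library for failed preparation. Corrections for cohort and surrogate variables that the methods describe are not in the deposited values and were not repeated. Whole reads were recovered from every value (tolerance 1e-06), which gave the depths in the text. The whole tables held no column of an unknown sample.

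Each table was fitted with limma 3.58.1 in R 4.3.3 on the deposited log2 values, with all groups in 1 model and a mean-variance trend. Tests were two-sided, Padj is Benjamini-Hochberg over all features of the table, and a call needs P below 0.05 and a fold of at least 1.2. Exact permutation tests over samples (scipy 1.17.1) stand beside single members; they reach 0.0357 at the lowest with 3 against 5 and 0.00794 with 5 against 5 samples. P values measure the spread between these samples. The fit was tested on simulated data.

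All 7 members are named in every miRNA comparison, with the other arms, miRNAs of the X-linked cluster, and for each member the 3 non-members with the highest r. Host and target genes are from a fixed list, of which those called are named, at most 8 in a comparison, and 1 gene of the list is not reported here. Members and lists were chosen with earlier results of these data known. miRNA sequences and hairpin positions are from RefSeq (GRCm38.p6) and host genes and 3′ UTRs from GENCODE vM21. miR-195b, miR-6342, miR-6353 and miR-6419, whose bases 2 to 7 equal those of a member, had no entry in either data set.

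Alternatives were no trend, only the compared groups, sample weights, quantile normalization, voom weights on the recovered reads with their sum as library size, an offset of 2 reads, a mean log2 CPM of at least 2, each library left out in turn, the replicate number as a block (AGO2), the first part of the mouse name as a covariate (blood) and D2 groups as in the column names. Leaving out the 2 D2 mice of unclear group, comparing susceptible mice of the strains, and comparing blood mRNA of the strains' controls were added after the data had been seen. Calls over all features were counted for the main fits and, among the alternatives, with quantile normalization and voom weights only.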

Additional observations from a re-analysis of the deposited data

Results flagged for a closer look

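In groups of 4 or 5 libraries, a library was singled out where its distance to the nearest other one took up nearly all of the group's range. Of 49 groups tested, this met 2, and chance alone meets about 1 in 20. miR-322-5p in the BNST was at 6.05 log2 CPM in control pool 1, against 6.38 in the nearest control pool. miR-497a-5p in the BNST was at 8.72 log2 CPM in resilient pool 2, against 7.89 in the nearest resilient pool, and without that pool it was called in resilient versus control pools (−0.49).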

How the results depend on the processing

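Over all named values and alternatives, 1601 recomputed differences kept direction and side of the threshold, 56 lost a call, 33 gained one and 82 changed sign, none of the latter being called before or after. The causes were not tested, except that leaving libraries out makes the groups smaller. Calls of members in the BNST rest on 3 to 5 pools and, for miR-15b-5p and miR-16-5p, on few reads. Pools of the same number were on average not more alike than pools of different numbers. In miRNA the mean r was −0.02 (3 of 11 pairs over 0.1) against 0.004 (10 of 44). In mRNA it was −0.07 (2 of 13) against 0.02 (22 of 52). With so few pools this cannot exclude a cohort or batch shared by pools of the same number. With a replicate block the members called were 1 (resilient versus control), 0 (susceptible versus control) and 0 (susceptible versus resilient). The host and target genes were, in the same order, 5, 6 and 0.

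Counts of members called in the BNST moved from 1 to 2 with sample weights for resilient versus control (0 to 2 with a pool left out), and from 1 to 0 with only the compared groups, sample weights or the replicate block for susceptible versus control (0 to 1 with a pool left out). For susceptible versus resilient they were 0 to 1 with a pool left out. Host and target genes in AGO2 mRNA were 3 to 7 for resilient versus control, lowest without resilient 2, and 2 to 9 for susceptible versus control, lowest without susceptible 4. For susceptible versus resilient they were 0 to 1, and 1 with voom weights.

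In blood, members called for B6 resilient versus control moved from 0 to 1 with only the compared groups (0 to 2 with a mouse left out). For B6 susceptible versus control they moved from 2 to 4 with only the compared groups and to 1 with voom weights (1 to 2 with a mouse left out). For D2 susceptible versus control they moved from 1 to 2 by the column names and to 3 without the 2 unclear mice (1 to 2 with a mouse left out). For the strain difference they moved from 0 to 1 with sample weights, voom weights, the first part of the mouse name, the column names and without the 2 mice (0 to 1 with a mouse left out). They stayed at 4 to 5 between controls and 4 to 6 between susceptible mice of the strains. Host and target genes in blood mRNA moved from 0 to 1 with sample weights for B6 resilient versus control (0 to 2 with a mouse left out), from 1 to 0 with sample weights for B6 susceptible versus control (0 to 3), and for D2 susceptible versus control from 0 to 3 with only the compared groups, 2 with sample weights, quantile normalization, the column names or without the 2 mice, and 1 with voom weights (0 to 1 with a mouse left out).

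The following uncalled differences changed sign. In AGO2 miRNA of susceptible versus control pools, miR-15a-5p was 0.046 with quantile normalization, 0.057 with voom weights and 0.0056 with the replicate block, miR-195a-5p 0.048 with voom weights, and miR-322-5p 0.029 with quantile normalization and 0.017 with voom weights. Of susceptible versus resilient pools, miR-15b-5p was −0.12 with sample weights, the second miR-16-5p entry 0.16 and miR-497a-5p −0.0098 with the replicate block. In blood, miR-15a-5p was −0.0097 in B6 susceptible versus control with voom weights. In D2 susceptible versus control, miR-15a-5p was 0.084 with sample weights, miR-15b-5p 0.00083 with voom weights and 0.0025 with the first part of the name, and miR-195a-5p 0.25 by the column names and 0.035 without the 2 mice. Between controls of the strains miR-16-5p was 0.038 with sample weights, 0.16 with voom weights, 0.16 by the column names and 0.13 without the 2 mice, and between susceptible mice miR-15b-5p was 0.0093 with quantile normalization and 0.12 with voom weights. In the strain difference, miR-15a-5p was 0.063 with sample weights, miR-15b-5p −0.046 by the column names, miR-195a-5p −0.028 with sample weights and −0.20 with the first part of the name, and miR-497a-5p 0.014 with quantile normalization and 0.0084 by the column names.

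With 1 library left out, sign changes gave these ranges. In resilient versus control pools the first miR-16-5p entry was −0.087 to 0.63. In susceptible versus control pools miR-15a-5p was −0.063 to 0.049, the second miR-16-5p entry −0.090 to 1.43 and miR-195a-5p −0.13 to 0.033. In susceptible versus resilient pools miR-15b-5p was −0.20 to 0.24 and miR-497a-5p −0.086 to 0.30. In B6 blood miR-15a-5p was −0.12 to 0.12 in resilient versus control, −0.050 to 0.034 in susceptible versus control and −0.12 to 0.12 in susceptible versus resilient mice, where miR-16-5p was −0.076 to 0.22, miR-322-5p −0.059 to 0.16 and miR-497a-5p −0.094 to 0.033. In D2 susceptible versus control miR-15a-5p was −0.14 to 0.20, miR-15b-5p −0.11 to 0.070 and miR-195a-5p −0.40 to 0.026. Between controls of the strains miR-16-5p was −0.083 to 0.13, and in the strain difference miR-15a-5p was −0.14 to 0.20 and miR-195a-5p −0.18 to 0.24.

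The balance of calls moved with 2 alternatives. Voom weights on read totals change the weighting and the library size together, and which of these moved the calls was not tested. With them, all AGO2 miRNAs called went from 31 higher and 44 lower to 47 and 36 for resilient versus control, from 12 and 25 to 23 and 17 for susceptible versus control, and from 16 and 15 to 26 and 11 for susceptible versus resilient. AGO2 mRNAs called for susceptible versus resilient went from 158 and 197 to 457 and 82. Blood miRNAs called went from 40 higher and 36 lower to 55 and 25 between controls of the strains, from 41 and 62 to 58 and 40 between susceptible mice, and from 8 and 4 to 5 and 5 for B6 susceptible versus control. Blood mRNAs called went from 111 and 165 to 20 and 108 for B6 resilient versus control, with a median shift to −0.15, and from 390 and 199 to 116 and 116 for B6 susceptible versus control, with a shift to −0.13, and from 89 and 117 to 65 and 132 for D2 susceptible versus control. With quantile normalization, AGO2 miRNAs called were 43 higher and 36 lower for resilient versus control and 16 and 19 for susceptible versus control. Blood miRNAs called were 14 and 9 for D2 susceptible versus control (from 12 and 14), 48 and 43 between susceptible mice of the strains, 5 and 4 for B6 susceptible versus control, 7 and 2 for B6 susceptible versus resilient (from 8 and 1) and 5 and 6 for the strain difference (from 4 and 9), and blood mRNAs 292 and 248 for B6 susceptible and 169 and 137 for D2 susceptible versus control. AGO2 mRNAs called for susceptible versus resilient moved little with it (134 and 193).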

Other observations

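The remaining members had the following closest non-members after removal of group means, as Pearson r over 25 blood libraries that share their depth and scaling. miR-322-5p was most like miR-345-5p (0.69), miR-126a-5p (0.69) and miR-103-2-5p (0.68), and miR-497a-5p most like miR-3470b (0.57), miR-148b-5p (0.51) and miR-32-5p (0.48). miR-15a-5p was most like miR-1839-5p (0.86), miR-140-5p (0.79) and miR-18a-5p (0.74), and miR-16-5p most like let-7j (0.85), miR-7a-5p (0.84) and miR-221-5p (0.76). Over the 13 AGO2 libraries miR-15a-5p was most like miR-101b-3p (0.83), miR-22-3p (0.78) and miR-101a-3p (0.76), miR-497a-5p most like miR-376a-5p (0.88), miR-30b-5p (0.86) and miR-3085-3p (0.84), and miR-322-5p most like miR-93-5p (0.84), the first entry of miR-218-5p (0.83) and miR-6915-3p (0.82).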
